A study of Oryzias latipes with 84 samples.

Results

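The gene crhbp (ENSORLG00000002228) encodes the corticotropin-releasing hormone binding protein. The genes described here are 100 whose expression followed that of crhbp across 68 single pituitaries of female medaka (Oryzias latipes). They were selected on these female libraries: among 15009 genes with a median of at least 5 CPM (counts scaled to an equal library total) in the females, each gene was assigned to whichever of 7 anchor genes (lhb, crhbp, prl, gh, tshba, hbbe2 and CD74) it had the highest Spearman rank correlation with, 1454 genes fell to crhbp, and the 100 with the highest rank correlation were kept, of 24363 genes in the whole table. The established genes oacyl, pcsk2 and pax7, globin gb, and the hormone and other genes whose gene models the study adjusted were left out of this choice. Members are numbered by rank, so that member 1 has the highest rank correlation with crhbp.

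Bulk RNA-seq libraries were available of 84 pituitaries, each from 1 fish of the d-rR lhb:GFP line, in which a GFP cassette reports lhb expression. All fish carried this transgene, so no comparison with fish lacking it was made, and the labels name no treatment. The 68 females fell into classes of 32-35 (n = 4), 37-39 (n = 4), 44-49 (n = 8), 53-59 (n = 9), 64-74 (n = 10), 79-92 (n = 10), 96-111 (n = 11), 131-179 (n = 6), 249-277 (n = 3) and 375 (n = 3) days post-fertilization (dpf), and the 16 males were of 38, 57, 70 and 134 dpf (n = 4 each). Body length ran from 9.5 to 29.0 mm in females and from 12.0 to 28.0 mm in males. Libraries held 2424546 to 9348785 counts, with a median of 6493890, and no 2 of them were identical.

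In libraries of this tissue, the 8 hormone genes took 1.48 to 38.1% of the counts. The 79 dpf female medaka7 had the lowest share, 1.48%, and the 70 dpf male medaka135 had 9.00% together with 6436 CPM of CD74, the gene of the MHC class II invariant chain and a marker of antigen-presenting cells, which lay at 256 to 1137 CPM in the other 15 males. Both libraries stand apart, and the membership, the leading rank correlations, the tie to length, the male tests and the 64-74 dpf comparison of the sexes are also given without the one they use. RNA levels from a whole gland do not tell fewer cells of a type from less RNA per cell.

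Crhbp binds corticotropin-releasing hormone and limits its access to its receptor. In this pituitary crhbp marks melanotropes, the pars intermedia cells that cleave the precursor encoded by pomca, with the convertase encoded by pcsk2, to α-Msh, whereas corticotropes process the same precursor to Acth. In teleosts α-Msh disperses pigment and takes part in adaptation to the background, and crhbp, oacyl, pcsk2 and pax7 are the genes with which the study described its melanotropes.

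These established genes, which the choice left out, give the scale against which the members can be read. Across the 68 females rank correlation with crhbp was 0.795 for oacyl, 0.689 for pomca and 0.610 for pcsk2, but only 0.252 for pax7, the gene of a pioneer factor of the melanotrope fate. Of the genes of other cell types, smtla (somatolactin) lay above pax7, at 0.392. So did gnrhr2, a gene of Lh gonadotropes that is itself member 37, at 0.310. Lower values were 0.161 for gh, 0.149 for prl, 0.147 and 0.146 for the globin genes gb and hbbe2, and 0.012 for pou1f1. The remaining genes were negative, at -0.109 for tshba, -0.112 for nr5a1b, -0.194 for lhb, -0.205 for fshb, -0.233 for cga and -0.248 for CD74. The median over the genes that passed the CPM minimum was -0.12 on the CPM scale, with 77.6% of them negative, and 0.08 after TMM normalization, with 38.6% negative. The 100 members had 0.238 to 0.739 on the CPM scale and 0.302 to 0.828 on the TMM scale.

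Member 1 (ENSORLG00000026115) had rank correlation = 0.739 with crhbp and member 2 (ENSORLG00000005962) 0.65, so that both lay among oacyl, pomca and pcsk2. Without medaka7 these were 0.727 and 0.634. Members 3, 4 and 5 had 0.570, 0.542 and 0.511. From there the values fell off: 15 members reached 0.4, 41 reached 0.3, the median was 0.288, and the last members inside the limit, 99 and 100, had 0.2396 and 0.2384, against 0.2378 and 0.2371 for the next genes outside. These values chose the members and are given as a description, without a test. A further 34 genes had a rank correlation with crhbp at least as high as member 100 but were assigned to another anchor.

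**Figure D1:**
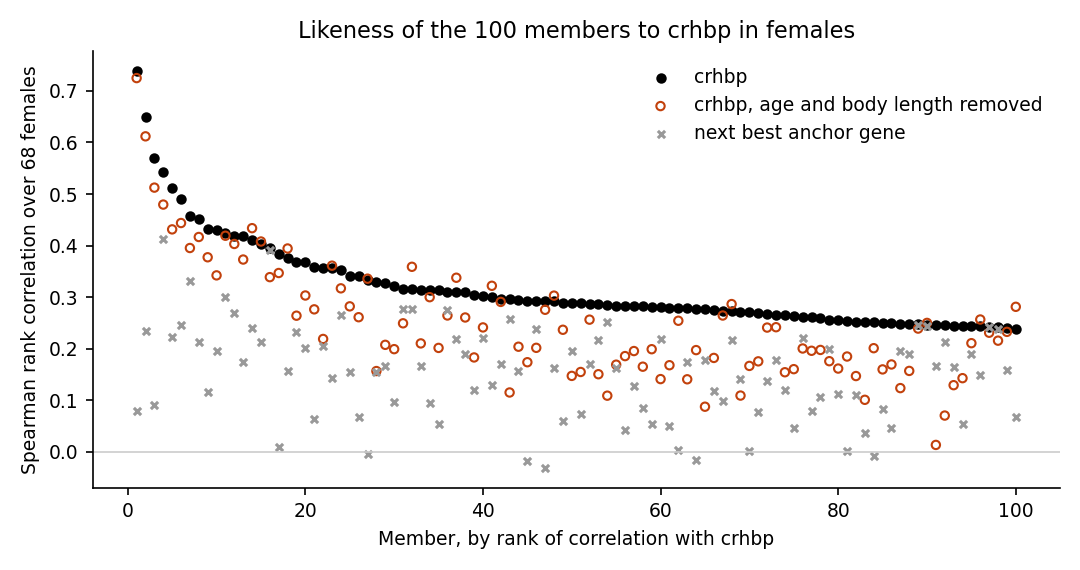
Spearman rank correlation over 68 females (vertical axis) of each of the 100 members, ordered by rank (horizontal axis), with crhbp (filled points), with crhbp after age and body length were removed (open points), and with the anchor gene of next highest rank correlation (crosses). Members 1 and 2 stand above 0.6 by both measures with crhbp, whereas from about rank 20 many open points fall well below the filled ones.

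The assignment was clear for some members and narrow for others. The gap in rank correlation between crhbp and the next best anchor had a median of 0.154. It reached 0.2 in 33 members and was under 0.05 in 12. The next best anchor was hbbe2 for 44 members, gh for 27, prl for 23, tshba for 3, lhb for 2 and CD74 for 1.

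The members are not a tight block. Over the 4950 pairs of members rank correlation between them in the females ranged from -0.38 to 0.94 with a median of 0.231, and 506 pairs were negative. The first 5 members were closer to each other, at 0.40 to 0.63. The closest pair was members 15 and 18, at 0.94, whose rank correlation with crhbp was 0.404 and 0.377. Points in these correlations share library depth and the share of counts taken by the hormone genes.

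Most members were of low to moderate abundance. Their medians over the females ran from 5.06 to 1842 CPM, with a median of 27.4 CPM, 37 members lay under 20 CPM and 13 at 100 CPM or above. Together the 100 genes took 0.47 to 1.49% of the counts of a female library. Member 4 was the most abundant, at 832 CPM in the lowest, 1842 in the median and 5065 CPM in the highest female. It was followed by members 93, 44, 55, 72, 33, 89 and 65, with mean CPM in females of 492, 353, 260, 234, 228, 173 and 172. Members 65 and 55 were the most uneven of these, with 7.06 CPM in the lowest and 1730 CPM in the highest female for member 65 and 19.0 and 2118 CPM for member 55.

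Only 1 member carries a name in the study, gnrhr2 (ENSORLG00000012659, member 37), the gene of a receptor for gonadotropin-releasing hormone that the study places in Lh gonadotropes. Its rank correlation was 0.310 with crhbp and 0.219 with lhb, its next best anchor, in females. It had 5.99 CPM in the lowest, 80.9 in the median and 196 CPM in the highest female, the lowest being medaka7. The other 99 members are described by rank, since no symbol is paired with their identifiers in the sources used here, and the 12 gene lists written by symbol, such as those for hormone processing, protein folding and glia, could not be matched.

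How much the list owes to the way it was made was measured by repeating the choice 9 times with 1 change each. All of the first 12 members were kept in 7 of the 9 repeats, and 11 members of the 100 were kept in every one, among them members 1 to 6. In contrast, 45 of the 100 members remained when TMM-normalised CPM replaced CPM, where the gene ranked last on the new list had a rank correlation of 0.484. 40 remained after age and body length had been removed, and 77 without medaka7.

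Levels of crhbp in females overlapped widely between ages. In the youngest class, of 32-35 dpf, the lowest, median and highest values were 148, 392 and 645 CPM. In the 131-179 dpf females they were 90.8, 149 and 173 CPM, and in the 375 dpf females 135, 247 and 413 CPM. The single lowest female was medaka7, at 54.1 CPM. The rank correlation of crhbp was -0.237 with age and -0.306 with body length.

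Member 1 had 3.64 CPM in the lowest female, medaka7, 36.7 CPM in the median and 133 CPM in the highest, of the 96-111 dpf class. Class medians differed little, from 31.2 CPM at 131-179 dpf to 53.5 CPM at 32-35 dpf. Member 2 had 14.8 CPM in medaka7, the lowest female, 109 CPM in the median and 763 CPM in the highest, a 32-35 dpf fish whose 3 classmates lay at 97.7 to 132 CPM. Its class median was lowest at 131-179 dpf, 49.4 CPM, and highest at 53-59 dpf, 176 CPM.

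**Figure D2:**
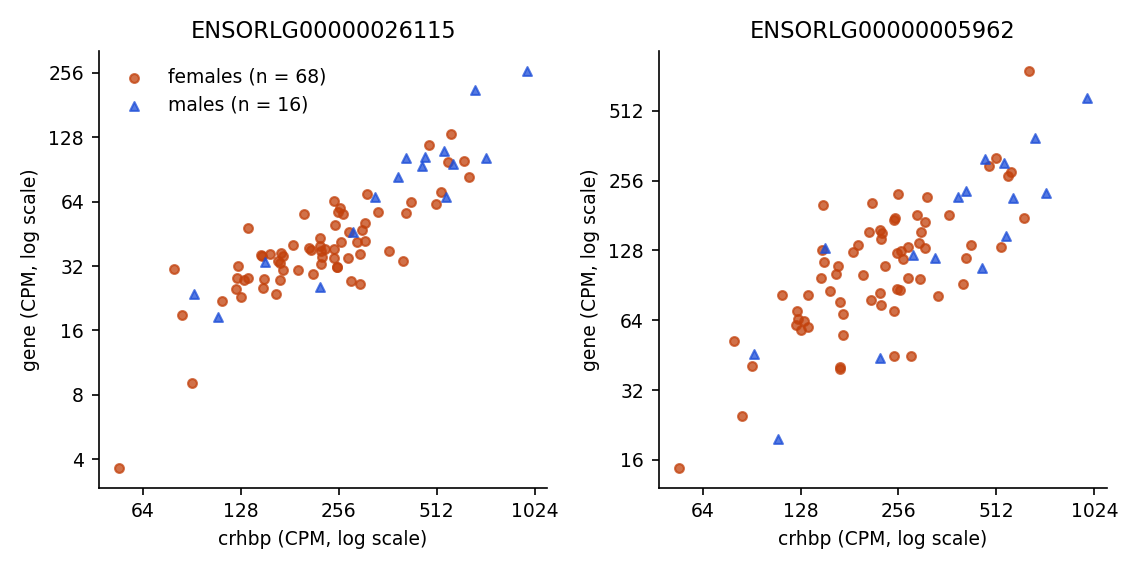
Levels of ENSORLG00000026115 (left) and ENSORLG00000005962 (right) in CPM against crhbp in CPM, both on log scales, for 68 females (circles) and 16 males (triangles), each point 1 fish. Both genes climb with crhbp in both sexes, with medaka7 at the lower left and the males of 134 dpf reaching 262 and 584 CPM at the upper right.

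Across the females the members as a whole were lower in longer fish. The rank correlation with body length was negative for 94 of the 100 members, with a median of -0.327, whereas over all genes the median was 0.080 and 38.3% were negative. With age, 92 members were negative, with a median of -0.274, whereas over all genes the median was 0.075 and 39.4% were negative. After TMM normalization, an alternative chosen after seeing the data, 100 members were negative with length, with a median of -0.387, and the median of all genes was -0.06, with 57.8% negative. Without medaka7, on the CPM scale, 98 were negative with a median of -0.353. Since these values come from the libraries that chose the members, they are a description without a test.

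The tie to length differed within the list. The rank correlation with length lay between -0.236 and -0.590 for the first 5 members, and was -0.776, the lowest, for member 91. When age and length were removed, rank correlation with crhbp was 0.725 for member 1 and 0.612 for member 2, but 0.014 for member 91, and the median over the members was 0.225.

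In each fish, the median over the members of log2 (CPM + 1), relative to the median of the females, was taken as the level of the list. It was highest in the 32-35 dpf females, with a class median of 0.43 and single fish between -0.07 and 0.74. It lay near 0 from 53-59 to 96-111 dpf, with class medians of -0.02 to 0.05. All 12 females of 131 dpf and older were below 0, between -0.73 and -0.08. The same measure over all genes had class medians of -0.12 to 0.13, without this order.

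Marker genes of other cell types and library complexity were set beside the members in females. The rank correlation with lhb was negative for 89 members, against 53.1% of all genes, and with CD74 for 92 members, against 45.3% of all genes. With tshba 85 members were negative, against 51.4% of all genes. The other anchors ran the opposite way, with 26 members negative with hbbe2, against 71.1% of all genes, 44 with prl, against 84.2%, and 47 with gh, against 80.4%. The rank correlation with the number of genes detected at equal depth was negative for 80 members, against 23.0% of all genes. RNA integrity, known for 57 females, had a median rank correlation of -0.07 with the members. The choice kept only genes with a higher rank correlation with crhbp than with any other anchor. The shares for the anchors therefore depend on the choice and are a description. The part of these measures in the list was not tested.

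The 16 males were not used to choose the members and allow a test. Crhbp varied among males of 1 age as well as between ages. It had 91.8, 224, 152 and 727 CPM at 38 dpf, 462, 283, 389 and 330 CPM at 57 dpf, 413, 577, 109 and 472 CPM at 70 dpf, and 972, 674, 539 and 549 CPM at 134 dpf. The high fish of 38 dpf was medaka128 and the low fish of 70 dpf was medaka135. Of the males, medaka140 of 134 dpf had the lowest RNA integrity, and it was the shortest fish of its age. At 134 against 38 dpf edgeR's quasi-likelihood test gave crhbp a log2 fold change of 1.00 with a standard error of 0.62 (adjusted p = 0.314), and the groups overlapped through medaka128 alone. Without this fish the log2 fold change was 2.22 with a standard error of 0.47 (adjusted p = 0.0267 in edgeR). With any other single male of 38 or 134 dpf left out it was 0.65 to 1.12 (adjusted p = 0.345 to 0.560 in edgeR).

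**Figure D3:**
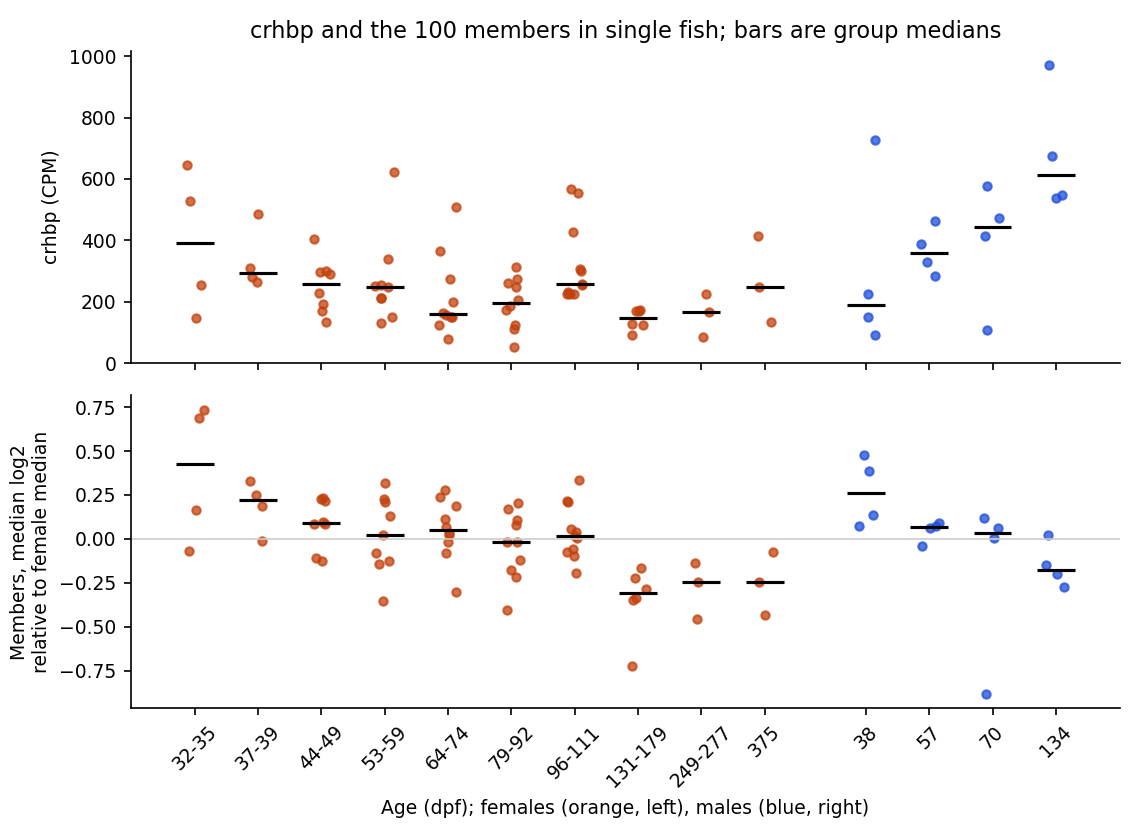
Levels in single fish by age in dpf, females left in orange and males right in blue, with bars at group medians. The upper panel shows crhbp in CPM, highest at 972 in a 134 dpf male, and the lower panel the median log2 level of the 100 members relative to the female median, which lies below 0 in all females of 131 dpf and older and is lowest, at -0.88, in the 70 dpf male medaka135.

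Member 1 followed crhbp through these males. It had 23.7, 25.6, 33.6 and 103 CPM at 38 dpf, in the same fish order as above, 94.04, 46.2, 83.6 and 67.1 CPM at 57 dpf, 103, 95.9, 18.6 and 104 CPM at 70 dpf, and 262, 213, 111 and 67.3 CPM at 134 dpf. The 38 dpf fish with most crhbp, medaka128, was also highest in member 1 at that age, and the 70 dpf fish with least, medaka135, was lowest. In edgeR's quasi-likelihood test on all 16 males, with log2 TMM-normalised CPM of crhbp as covariate, the slope of member 1 was 1.04 (log2 change per doubling of crhbp, standard error 0.10, adjusted p = 6.3e-05), the smallest p of the 19501 genes tested. The slope was 1.09 without medaka128 and 1.03 without medaka135.

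Member 2 had 45.8, 43.9, 131 and 226 CPM at 38 dpf, 108, 122, 217 and 119 CPM at 57 dpf, 231, 216, 19.7 and 317 CPM at 70 dpf, and 584, 391, 306 and 148 CPM at 134 dpf. Again medaka128 and medaka135 were the highest and the lowest fish of their ages. Its slope was 1.03 (standard error 0.16, adjusted p = 0.00989 in edgeR's quasi-likelihood test), 1.07 without medaka128 and 0.93 without medaka135.

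Over the list, 8 of the 100 members rose with crhbp in males (edgeR, adjusted p under 0.05), where 0.544% of all genes tested did. They were members 1, 2, 10, 6, 17, 3, 36 and 67 in order of p, with slopes of 0.34 to 1.04. 0 members fell with crhbp, where 1.67% of all genes did, although 13 members, against 11.8% of all genes, had a negative slope with an unadjusted p under 0.05. In the other direction 23 members did, against 5.76% of all genes. DESeq2 found 9 members lower, with 3.98% of all genes, and 12 higher, with 2.01%. The median slope was -0.00 over the 100 members and -0.02 over all genes, and 50 members had a positive slope, against 47.2% of all genes. With body length as a covariate the members' median was 0.14, that of all genes -0.03, and 71 members had a positive slope, against 44.5% of all genes. In that fit 12 members were called as rising (0.544% of all genes) and 0 as falling (2.77% of all genes). There 4 members, against 10.2% of all genes, had a negative slope with an unadjusted p under 0.05. Without medaka135, 7 members rose (0.375% of all genes) and 3 fell (1.63% of all genes). The median was then -0.07 over the members and 0.02 over all genes. The first 12 members all had positive slopes, with a median of 0.37, and 5 of them were called. Member 37, gnrhr2, had a slope of 0.30 (standard error 0.16, adjusted p = 0.357 in edgeR). Among the genes left out of the choice, pomca rose with a slope of 0.96, pcsk2 with 0.70, the somatolactin gene smtla with 0.69 and oacyl with 0.63 (edgeR, adjusted p = 0.000351, 0.0138, 0.0386 and 0.018), whereas pax7 had 0.15 (adjusted p = 0.395). Of the gonadotrope genes, nr5a1b, the gene of a nuclear receptor of these cells, rose with a slope of 0.55 (adjusted p = 0.0202 in edgeR). The genes lhb and cga, which encode subunits of Lh, had 1.06 and 0.64 (adjusted p = 0.0553 and 0.0524 in edgeR). CD74 and the globin genes hbbe2 and gb had slopes of -0.88, -0.82 and -0.82 (adjusted p = 0.0729, 0.114 and 0.121 in edgeR). Their part in the members' slopes was not tested. The count of 8 fell to 3 without the 38 dpf males medaka125 or medaka128, to 4 without medaka126, medaka129, medaka136, medaka138 or medaka139, and to 5 without medaka134 or medaka137. In these fits 0.135 to 0.503% of all genes rose. Members 1, 2 and 10 kept their call whichever male was left out.

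With male age as a factor, so that fish of the same age were compared, 9 members rose with crhbp (0.287% of all genes) and 0 fell (0.979% of all genes; 1 member, against 9.86% of all genes, at an unadjusted p under 0.05, and 0 in DESeq2). At an unadjusted p under 0.05, 31 members had a positive slope, against 6.30% of all genes, and DESeq2 called 16 members higher, with 1.05% of all genes, while 3.45% of all genes were lower. They were members 1, 10, 4, 32, 6, 12, 2, 5 and 100 in order of p. The median slope was 0.16 over the members and -0.03 over all genes, 75 members had a positive slope, against 45.7% of all genes, and 7 of the first 12 members were called. Member 1 had a slope of 0.95 (standard error 0.12) and member 10 a slope of 0.72 (standard error 0.09), with adjusted p = 0.0033 for both in edgeR. Member 4, the most abundant of the list, had 0.56 (standard error 0.11, adjusted p = 0.0244). Member 10 had 10.4, 17.3, 21.6 and 48.6 CPM at 38 dpf and 17.4, 23.7, 8.09 and 26.3 CPM at 70 dpf, so that medaka128 was again the highest and medaka135 the lowest fish of its age.

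The count within ages depended on single fish. It was 2 without the 70 dpf males medaka134 or medaka135, and without medaka135 only 3 genes of the whole table were called. It was 3 without medaka125 (0.115% of all genes), medaka138 or medaka140, and 4 without medaka136 or medaka137. The count was 5 without medaka139, 14 without medaka126 (0.717% of all genes) and 17 without medaka127. It was 2 with the number of genes detected as a covariate, where 3 genes of the whole table rose and 5 fell. The median slope of the members was 0.08 without medaka135, with 60 positive, 0.31 without medaka128, with 86 positive, and 0.11 with the number of genes detected as a covariate, with 69 positive where 50.4% of all genes were. Members 1 and 10 were called in every one of these repeats, whereas member 2 lost its call in 11 of 22, with a slope of 0.76 (adjusted p = 0.285 in edgeR) without medaka135. Counts given here without the share of all genes are not read as a result about the members. Crhbp and the members were measured in the same libraries and share their scaling. Among the genes left out of the choice, pomca had 0.92, oacyl 0.76 and pcsk2 0.74 within ages (adjusted p = 0.0033, 0.0177 and 0.0216 in edgeR). The slopes of nr5a1b, gh, cga, lhb and tshba were 0.54 to 0.56, and prl had 0.44 and smtla 0.41. CD74 had -0.68, hbbe2 -0.39 and pax7 0.24. From nr5a1b to pax7 the adjusted p was 0.0678 or above in edgeR. Their part in the members' slopes was not tested. The slopes do not place the members in melanotropes or in any other cell type. They also do not tell more cells of a type from more RNA of these genes per cell.

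With male age, members were lower rather than higher. In the males of 134 against 38 dpf, tested in edgeR with all 4 ages in 1 fit, 13 members were lower (1.28% of 19502 genes) and 0 higher (1.06% of genes; 4 members, against 13.0% of genes, at an unadjusted p under 0.05, and 1 in DESeq2, with 8.30% of genes). DESeq2 called 25 members lower, with 4.22% of genes, and 38 members were lower in edgeR at an unadjusted p under 0.05, against 13.6% of genes. The median log2 fold change was -0.61 over the members and -0.01 over all genes, and 81 members were below 0. The 13 were members 91, 69, 43, 60, 92, 44, 28, 63, 54, 71, 30, 57 and 93 in order of p, with log2 fold changes of -2.87 to -0.89. None was among the first 12, whose median was -0.05. Without medaka128 that median was 0.44, and 1 of the 12 was called as higher. The share of all genes called in that fit is not given here, so this call is not read as a result about the members.

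Member 91 (ENSORLG00000016642) had 5.41, 8.36, 11.7 and 17.8 CPM in the 134 dpf males and 28.9, 68.02, 46.7 and 17.6 CPM in the 38 dpf males. The 38 dpf fish medaka128, the one with high crhbp, lay just below the highest 134 dpf fish, and the other values did not overlap. This gave a log2 fold change of -1.97 with a standard error of 0.35 (edgeR, adjusted p = 0.0225). In females the same gene had a class median of 38.6 CPM at 32-35 dpf, 25.8 at 37-39 dpf, 9.91 at 131-179 dpf and 8.05 CPM at 375 dpf.

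Member 69 (ENSORLG00000014086) had 30.6, 34.6, 36.0 and 29.8 CPM in the 134 dpf males, below all of the 38 dpf males at 53.4, 112, 95.1 and 48.4 CPM. This gave a log2 fold change of -1.27 with a standard error of 0.23 (edgeR, adjusted p = 0.0258). Larger falls were seen for members 43 and 60. Member 43 had 2.20, 4.11, 3.33 and 7.04 CPM at 134 dpf, against 33.1, 46.7, 23.3 and 7.74 CPM at 38 dpf (log2 fold change -2.80, adjusted p = 0.0314 in edgeR). Member 60 had 3.22, 4.25, 11.1 and 15.5 CPM at 134 dpf, against 50.8, 84.6, 45.0 and 44.9 CPM at 38 dpf (log2 fold change -2.87, adjusted p = 0.0329 in edgeR). For both genes the groups did not overlap.

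The number of calls depended on single fish, over the whole table as well as in the list. It was 0 of the members without the 38 dpf male medaka126, where 1 gene of the whole table was called higher and 5 lower, and 0 without the 134 dpf males medaka138 or medaka139, where 0 genes were called in either direction. The members' median moved little, to -0.57, -0.58 and -0.63 without these 3 fish, with 78 to 81 members below 0. The count was 1 without medaka140, 2 without medaka125 and 5 without medaka137. It was 21 without medaka135, a 70 dpf fish that enters only through the filter, the scaling and the shared spread, with a median of -0.62. As calls over the whole table also moved when fish were left out, these counts are not read as a result about the members. More genes were detected at equal depth in the 134 dpf males, 20702 to 22339, than in the 38 dpf males, 18992 to 19804, and with that number as a covariate 0 genes of the whole table were called and the median was -0.25 over the members and -0.15 over all genes. This number and age cannot be told apart at these ages. The globin gene hbbe2, a red blood cell marker, had 1607 to 4658 CPM in the 134 dpf males and 621 to 55296 CPM in the 38 dpf males (log2 fold change -2.87, adjusted p = 0.0907 in edgeR). The other globin gene on the marker list, gb, had 726 to 1805 CPM and 246 to 23105 CPM in the same groups. The gonadotrope genes lhb and fshb and the somatolactin gene smtla rose. Their log2 fold changes were 2.82, 2.35 and 1.81 (adjusted p = 0.0457, 0.0353 and 0.0386 in edgeR). The hormone genes tshba and gh had -2.29 and -1.48 (adjusted p = 0.0833 and 0.0904 in edgeR). The part of these marker genes' cell types in the falls was not tested.

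Between neighbouring male ages no member was called in edgeR. At 57 against 38 dpf, at 70 against 57 dpf and at 134 against 70 dpf it called 0% of all genes as higher and 0% as lower. At an unadjusted p under 0.05, 0 members were higher and 13 lower at 57 than at 38 dpf, where 5.09% of all genes were higher and 5.06% lower. At 70 against 57 dpf 1 member was higher and 1 lower, against 4.03% and 3.39% of all genes. At 134 against 70 dpf 1 member was higher and 25 lower, against 9.74% and 9.62% of all genes. DESeq2 called 0 members in the earlier steps and 0 members higher and 6 lower at 134 than at 70 dpf, where it called 3.89% of all genes as higher and 1.47% as lower. The median log2 fold change of the members was -0.22 at 57 against 38 dpf, 0.01 at 70 against 57 dpf and -0.33 at 134 against 70 dpf, and that of all genes was 0.02, -0.02 and -0.04. Without medaka135, edgeR called 2 members lower and 0 higher at 134 against 70 dpf, with 0.330% of all genes lower and 1.35% higher, and the members' median was -0.48. At 70 against 57 dpf the median was then 0.10, with -0.07 over all genes, and 0 members were called.

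The male comparisons rest on the same 16 libraries, so their values are set side by side. The 8 members that rose with crhbp had log2 fold changes of -0.16 to 1.67 at 134 against 38 dpf, 7 of them positive, and 0 of them were called there. The 13 members that fell at 134 against 38 dpf had slopes of -0.75 to -0.15 with crhbp over all males. Crhbp itself had a log2 fold change of 1.00 in that contrast (adjusted p = 0.314 in edgeR). Slopes over all males and the age contrast are therefore not independent. Between males of the same age the slopes of the 13 were -0.29 to 0.22, 7 of them negative and 6 positive. In the females the 8 rising members had a rank correlation with length of -0.642 to -0.073 and kept a rank correlation with crhbp of 0.265 to 0.725 once age and length were removed. The 13 falling members had a rank correlation with length of -0.776 to -0.370 and were left with a rank correlation with crhbp of 0.014 to 0.204. All of the 8 and none of the 13 remained on the list when age and length were removed before the choice. Before that removal the 8 had a rank correlation with crhbp of 0.273 to 0.739, and the 13 of 0.245 to 0.329. The 9 members that rose within ages had log2 fold changes of -1.02 to 1.67 at 134 against 38 dpf. Of these 9, 6 were negative there and 8 remained on the list. The female values chose the members, so they are a description without a test.

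**Figure D4:**
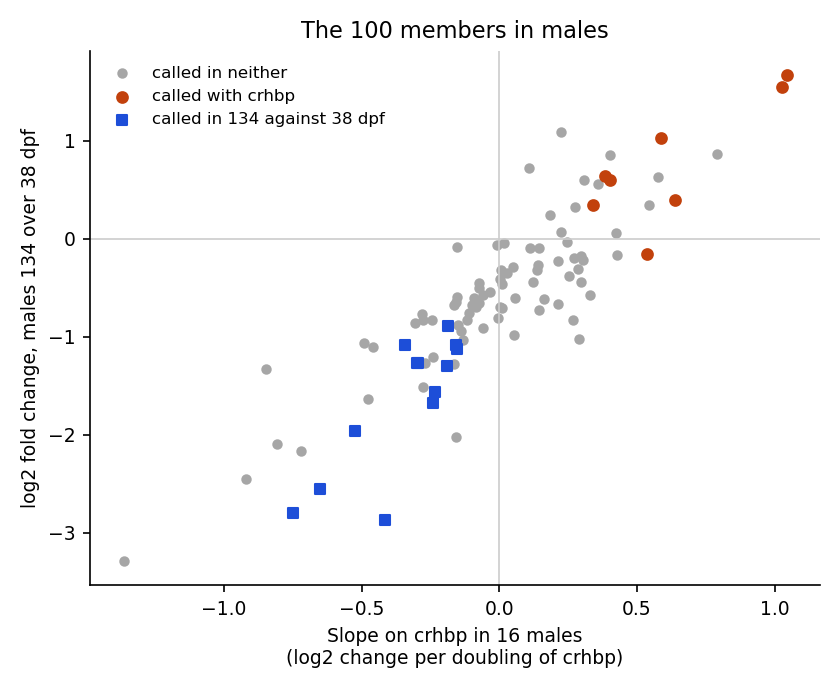
For each of the 100 members, the slope on crhbp over 16 males (horizontal axis, log2 change per doubling of crhbp) and the log2 fold change in males of 134 over 38 dpf (vertical axis), both from edgeR on the same libraries. The 8 members called with crhbp (circles) lie at slopes of 0.34 to 1.04, and the 13 called as lower at 134 dpf (squares) lie at negative values on both axes.

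Females and males of like age were compared as a description, since the female values entered the choice. The groups were not matched in body length, and the 134 dpf males reached greater lengths than the 131-179 dpf females. The part of length in these differences was not tested. At 131-179 dpf in females, against 134 dpf in males, crhbp was lower in the females, with a log2 ratio of mean CPM of -2.25, and so were members 1 and 2, at -2.53 and -2.76. For member 1 the females had 9.08 to 36.9 CPM and the males 67.3 to 262 CPM, and for member 2 the females had 39.3 to 68.3 CPM and the males 148 to 584 CPM, so that the sexes did not overlap in either. The median over the 100 members was -0.16, whereas that over all genes was 0.30. After TMM normalization the medians were -0.51 and -0.03.

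At the earlier ages the log2 ratios of crhbp and of members 1 and 2 were smaller in size when all fish were used. In females of 64-74 dpf relative to males of 70 dpf, the log2 ratio was -0.85 for crhbp, -1.08 for member 1 and -0.60 for member 2, and the groups overlapped. For member 1 they did so through medaka135 alone, since the females had 23.8 to 62.6 CPM and the other 3 males 95.9 to 104 CPM. Without that male the ratios were -1.16 for crhbp, -1.41 for member 1 and -0.98 for member 2, and the median over the members was 0.01, with 0.49 over all genes. With all 4 males the median over the members was 0.18 on the CPM scale, where the median over all genes was 0.50, but -0.36 after TMM normalization, where that over all genes was -0.06. In females of 37-39 dpf relative to males of 38 dpf it was -0.08, with 0.05 over all genes, and -0.24 with -0.09 after TMM normalization. Crhbp itself was at 0.16 there on the CPM scale and at -0.13 after TMM normalization. Members 1 and 2 were higher in the females, at 0.39 and 0.49 on the CPM scale and at 0.12 and 0.22 after TMM normalization. The male mean at 38 dpf includes medaka128, the fish of that age with most crhbp. That male had 103 CPM of member 1, against 23.7 to 33.6 CPM in the other males of its age. The ratios at this age were not computed without medaka128.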

How the data were processed

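Single pituitaries were sampled from 68 female and 16 male medaka. The authors made Smart-SEQ HT and Nextera XT libraries, sequenced them on an Illumina NovaSeq, aligned reads with STAR 2.7.6a to the Hd-rR assembly (Ensembl 94, some gene models adjusted) and deposited raw counts for each gene. HTSeq 0.11.2 and SAMtools 1.10 are also named in the submitters' processing notes. The study names an intersection-nonempty counting mode for its single-cell reads and not expressly for these libraries, and a strand setting is not given in the sources used here. Genes that overlap, or lie antisense to each other, may therefore share reads. Ages are those of the labels, and the study's methods give younger ages for 3 of the 134 dpf males (medaka137 to medaka139).

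CPM were computed from the counts and library totals. The members and gene lists were chosen with earlier results of these data known. Members were named by rank: the first 12, the 8 of highest mean CPM in females, those at the limit of 100, and those of smallest p in the male tests. The rank correlation in females is a description. Males were tested with edgeR 4.0.16 in R 4.3.3 (TMM, filterByExpr, robust quasi-likelihood fit, Benjamini-Hochberg over all genes, adjusted p under 0.05), with crhbp left out of the genes tested against it. Standard errors were derived from the F statistic. DESeq2 1.42.0, other scaling, filters and covariates, and each fish left out were the alternatives. TMM in females, and leaving out medaka7, medaka128 or medaka135 where not planned, were added after seeing the data. Tables and plots used Python 3.11.15, numpy 2.4.6, pandas 2.3.3 and matplotlib 3.10.9. Each fish counts as 1 replicate, and no column lay outside the labelled fish. Genes detected were counted after thinning to 2424546 counts.

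On simulated counts with 200 changed genes, the test against crhbp (18936 genes) recovered 50% of slopes of 0.5 and 89% of slopes of 1, with 8.55% of calls false. With age as a factor (18957 genes) these were 20%, 77% and 3%, and for 134 against 38 dpf (18964 genes) 12% of log2 changes of 1 and 68% of 2, with 4.76% false. The simulation gave crhbp almost no noise of its own and drew the genes independently of each other. These rates may therefore not hold for the real libraries.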

Additional observations from a re-analysis of the deposited data

Results flagged for a closer look

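Crhbp, the median level of the members, and the levels of members 1, 2, 69 and 91 and of gnrhr2 were screened for single fish far from the others of their group, in the 11 groups of 4 to 10 fish. By Dixon's test 12 of 77 combinations stood apart. The test's rate of about 1 in 20 holds for independent, normally distributed values. Most of these measures are plain CPM, and they come from the same fish, so no excess is read from this count. In females, medaka108 (32-35 dpf) had 763 CPM of member 2, against 97.7 to 132 CPM in its 3 classmates. The 53-59 dpf female medaka76 had 624 CPM of crhbp, against 131 to 338 CPM in the other 8, and 99.5 CPM of member 1, against 25.3 to 57.2 CPM. At 64-74 dpf, medaka82 had 320.2 CPM of member 2, against 52.2 to 181 CPM in the other 9, and medaka26 had 84.7 CPM of member 91, against 15.3 to 50.02 CPM. At 131-179 dpf, the members' median log2 level was -0.73 in medaka119, against -0.35 to -0.17 in the other 5, and medaka118 had 174 CPM of gnrhr2, against 17.5 to 69.2 CPM.

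In males, medaka128 (38 dpf) had 103 CPM of member 1, against 23.7 to 33.6 CPM in the other 3. Of the 57 dpf males, medaka131 had 217 CPM of member 2, against 108 to 122 CPM, and medaka132 had 40.4 CPM of member 91, against 16.5 to 19.8 CPM. The 70 dpf male medaka135 had a members' median log2 level of -0.88, against 0.00 to 0.12 in the other 3, and 18.6 CPM of member 1, against 95.9 to 104 CPM.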

How the results depend on the processing

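Of the 100 members, 84 were kept with a median of at least 1 CPM, 77 without medaka7, 63 with at least 20 CPM, which is every member that reaches that level, 55 with totals without the 8 hormone genes, 55 with Pearson r of log2 (CPM + 1), 53 with the number of genes detected removed, 52 in females of 53 dpf and older, 45 with TMM-normalised CPM and 40 with age and body length removed. The count of members rising with crhbp in males ran from 3 to 12 when each male was left out, and of those falling from 0 to 3. Of all genes, 0.135 to 1.65% rose and 0.714 to 3.98% fell in these fits. Members falling numbered 9 in DESeq2 (3.98% of all genes) and 2 with the number of genes detected as a covariate (2.66% of all genes). Within ages, members rising numbered 2 to 17 with 1 male left out, and members falling 0 to 1. Members rising numbered 16 in DESeq2 (1.05% of all genes) and 2 with the number of genes detected as a covariate (0.0154% of all genes). Without medaka125, 3 members and 0.115% of all genes rose, and without medaka126, 14 members and 0.717% of all genes. At 134 against 38 dpf, members lower numbered 0 to 21 with 1 male left out and 25 in DESeq2. They numbered 0 with the number of genes detected as a covariate, where no gene of the whole table was called. Members higher numbered 0 to 2 with 1 male left out and 1 in DESeq2. At 134 against 70 dpf DESeq2 called 6 members lower, and edgeR 2 without medaka135. With TMM normalization the members' median in females relative to males was -0.36 at 64-74 and 70 dpf and -0.51 at 131-179 and 134 dpf. Counts given without the share of all genes are not read as a result about the members. Except at 20 CPM, the cause of these changes was not tested.

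For 31 single-gene results, 591 values were computed under alternatives. Apart from gnrhr2, these results were picked because the member was called in a main male fit. 375 kept their direction and their side of the threshold, 216 kept their direction but missed the threshold, and 0 changed sign. The alternatives reuse most of the same libraries, so the kept directions are not independent support. No paired analysis was possible because each fish is a separate animal and replicate numbers only name fish within a group. With 4 males an age, changes of 2-fold were mostly missed on simulated counts.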
